A study of Mus musculus with 2 samples.

Results

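The MHC class II pathway genes H2-Aa, H2-Ab1, H2-Eb1, Cd74, H2-DMa, H2-DMb1, H2-DMb2, H2-Oa, H2-Ob and Ciita were followed across the cell types of a mouse ovarian tumour. They were chosen by gene symbol, and all 10 were found among the 32285 genes of the count files. Their unique molecular identifiers (UMIs, each standing for 1 captured RNA molecule) were added up for each class and library and are given per 1000000 UMIs of those cells (CPM). The classes were dendritic-like, macrophage-like, monocyte-like, B-like, fibroblast-like and cancer-like cells, gated cell by cell on marker lists that hold no class II gene.

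MHC class II molecules are pairs of an alpha and a beta chain that carry peptides from endocytosed proteins to the cell surface, where CD4 T cells read them. The invariant chain Cd74 fills the groove of new pairs until the H2-DM molecule exchanges its last fragment for a peptide, and H2-O is an inhibitor of H2-DM. Ciita is the coactivator that switches on most of these genes. It is known to be constitutive in dendritic cells and B cells, to be induced by interferon gamma in many other cells, and to be missing from mouse T cells.

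The libraries came from tumours that grew where the peritoneal wall of female C57BL/6 mice (6 to 8 weeks old) had been abraded. All mice of both groups carried syngeneic ovarian cancer cells of the genotype p53-/-, myc, Hras, injected into the peritoneal cavity, and no allele of the mice themselves is named. From the next day 7 mice were given control IgG and 8 mice the Activin A neutralizing antibody, daily for 10 days by the labels (the study's text for its single-cell experiment gives other numbers of mice and days). Tissue of a group was pooled into 1 library without sorting, after lysis of red cells and removal of dead cells, so that mice cannot be told apart and antibody and library cannot be told apart.

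In total 98174850 UMIs were counted with control IgG and 74117462 with the antibody. The filters (genes between 1000 and 8500, UMIs between 1000 and 100000, a mitochondrial share of at most 10%) kept 8770 and 6386 cells with a median of 5719 and 4660 UMIs, of which 19 barcodes occurred in both libraries. No test between groups was possible with 1 library each, and the 95% intervals below cover counting error only. In barcodes with under 100 UMIs, taken as free RNA, the 10 genes summed to 5318 CPM with control IgG and 3056 CPM with the antibody. Free RNA makes up only a part of the UMIs of a cell, so a level below or overlapping it does not show absence. T-like cells, 57.8% and 62.6% of the cells, served as the class that should lack class II. Their H2-DMa was high beside H2-Aa, with 45.3 and 61.0 UMIs per 100 H2-Aa UMIs against 15.8 and 19.2 in free RNA. The T-like level is thus not a pure measure of free RNA.

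The genes with the largest fold over all other cells were listed for each class. Cells were gated on these same marker lists, so markers of a class among its leading genes are largely fixed by the gate. The list describes the classes and is no independent check of their names. Among the 10 leading genes of each class, 6 were markers of its own list in dendritic-like cells (Siglech, Flt3, Ccr7 and Cd209a among them), 7 in macrophage-like cells (C1qa, C1qb, C1qc), 3 in monocyte-like cells (Chil3, Ifitm6, F10), 6 in B-like cells (Cd79a, Ms4a1, Pax5), 5 in fibroblast-like cells (Col1a1, Lum, Dpt) and 6 in cancer-like cells (Dlk1, Hmga2, Krt18). None of these leading genes was a marker of another class, and none was a class II gene. A class cut from a score is a range: 164 of 1327 macrophage-like and 141 of 740 monocyte-like cells led the next class by less than a score of 0.1, and the median macrophage score of monocyte-like cells was 0.154.

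All members but Cd74 and Ciita lie in the class II region of chromosome 17 (GRCm38, GENCODE M21), between position 34092340 at the start of H2-Oa and 34316674 at the end of H2-Eb1, and Ciita lies on chromosome 16 from 10480059 to 10528418. Promoters of class II genes are known for an X box and a Y box, which bind RFX and NF-Y and form the platform for Ciita. The stretches below are shown for classical chains, for the H2-DM beta chain H2-DMb2 and for both H2-O chains, whose levels differed in pattern over the classes. They are RefSeq promoter sequence of GRCm38.p6, each 56 bases long and ending at the letters GATTGG, the core of the Y box read on the strand of the gene, in capitals. The letters AACNGATG and AGNAAC of the X box, searched as a long and a short form that overlap by AAC, are also in capitals where they occur.
H2-Aa, chr17:34287867-34287922, minus strand: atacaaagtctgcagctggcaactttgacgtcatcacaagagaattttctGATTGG
H2-Eb1, chr17:34305757-34305812, plus strand: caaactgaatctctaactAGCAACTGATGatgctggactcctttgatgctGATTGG
H2-DMb2, chr17:34145108-34145163, plus strand: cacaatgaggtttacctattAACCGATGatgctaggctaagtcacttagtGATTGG
H2-Oa, chr17:34092285-34092340, plus strand: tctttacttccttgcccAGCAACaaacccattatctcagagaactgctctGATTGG
H2-Ob, chr17:34238797-34238852, plus strand: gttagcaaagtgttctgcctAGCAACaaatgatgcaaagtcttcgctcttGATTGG

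The Y box letters stood 49, 60, 91, 44 and 58 bases before the RefSeq start in these promoters, in that order. RefSeq and GENCODE starts can differ. The H2-Oa stretch ends on the GENCODE start of the gene, and GENCODE starts H2-DMb2 at 34143307, before its stretch. All 7 members with a RefSeq promoter held GATTGG within 250 bases before a start on either strand. Counted by promoter, 7 of their 8 promoters held it, against 14.6% of 32851 promoters. In H2-DMb1 it stood 62 bases before the RefSeq start, and the 56 bases that end with it lie in an annotated exon. In H2-DMa, which has 2 RefSeq starts, it stood 199 bases before one of them. The long X box letters occurred in H2-Eb1, H2-DMb1 and H2-DMb2 (3 of 8 promoters), against 1.98% of all promoters. The short ones occurred in H2-Eb1, H2-DMb1, H2-Oa and H2-Ob (4 of 8), against 42.3%. The same 56 bases of H2-DMb1 and H2-DMb2 were identical at 51 positions. A match of letters is a description and not a site shown to be used. H2-Ab1, Cd74 and Ciita had no entry in the table.

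The classical chains H2-Aa, H2-Ab1 and H2-Eb1 were highest in dendritic-like cells. H2-Aa, the alpha chain of I-A, was 6791 and 5763 CPM there with control IgG and with the antibody, 5078 and 4047 CPM in macrophage-like cells and 4630.1 and 2356 CPM in monocyte-like cells. It was 2684 and 2119 CPM in B-like, 283 and 91.8 CPM in fibroblast-like and 48.9 and 15.8 CPM in cancer-like cells. T-like cells had 89.3 and 60.6 CPM and free RNA 799 and 460.3 CPM. The 4 immune classes were thus above free RNA, and fibroblast-like and cancer-like cells below it, in both libraries.

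H2-Ab1, the beta chain of I-A, followed the same order with 6557 and 6005 CPM in dendritic-like, 5302 and 4197 CPM in macrophage-like, 4717 and 2495 CPM in monocyte-like and 2024 and 1659 CPM in B-like cells. Fibroblast-like cells had 445 and 185 CPM and cancer-like cells 50.5 and 22.2 CPM. H2-Eb1, the beta chain of I-E (C57BL/6 mice are known to lack its partner H2-Ea and so I-E at the surface), was 7058 and 6593 CPM in dendritic-like, 4669 and 4024 CPM in macrophage-like, 4058 and 2122 CPM in monocyte-like, 2624 and 2126 CPM in B-like, 362 and 125 CPM in fibroblast-like and 51.9 and 22.3 CPM in cancer-like cells. For H2-Eb1 monocyte-like cells of the antibody library (2052 to 2192 CPM) and B-like cells of the same library (2008 to 2249.7 CPM) overlapped in their intervals, so that these neighbours in the order could not be separated at this depth.

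**Figure D1:**
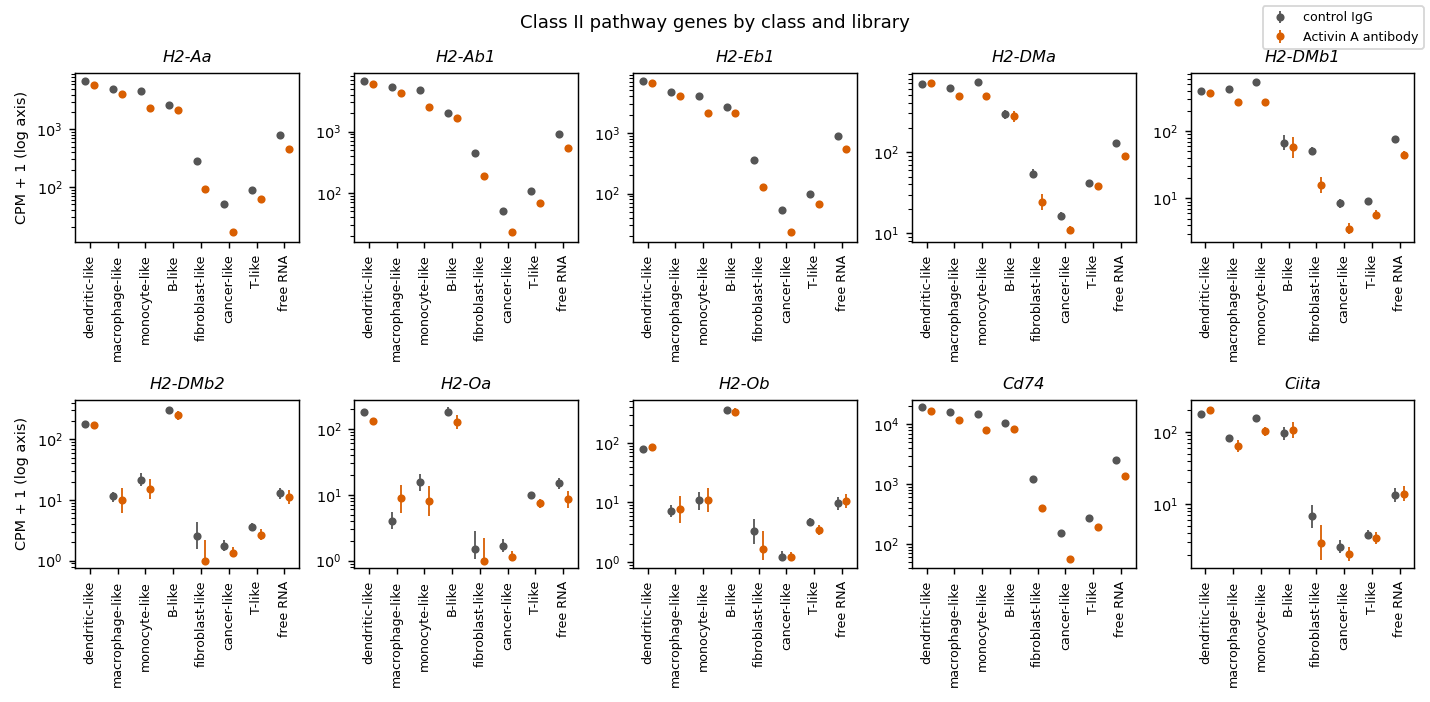
CPM plus 1 on a log axis for each of the 10 genes (panels) in the 6 classes, in T-like cells and in free RNA, with control IgG in grey and the Activin A antibody in orange; points are values of 1 library and bars exact 95% Poisson intervals. H2-Aa, H2-Ab1, H2-Eb1 and Cd74 are highest in dendritic-like and lowest in cancer-like cells, while H2-DMb2, H2-Oa and H2-Ob stand out in dendritic-like and B-like cells.

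Cd74, the invariant chain, which guides new class II pairs to endosomes, was 19108 and 16536 CPM in dendritic-like cells, 15840.3 and 11949.9 CPM in macrophage-like, 14748 and 8012 CPM in monocyte-like and 10473 and 8399 CPM in B-like cells. Fibroblast-like cells had 1241 and 392 CPM, cancer-like cells 155 and 55.1 CPM and T-like cells 275 and 194 CPM. Beside 100 UMIs of H2-Aa there were 281 and 287 UMIs of Cd74 in dendritic-like, 312 and 295 in macrophage-like and 390.2 and 396 in B-like cells. In the antibody library Cd74 was thus somewhat higher in B-like than in monocyte-like cells, the reverse of the order with control IgG, and its proportion to H2-Aa was highest of the 4 immune classes in B-like cells of both libraries.

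H2-DMa, the alpha chain of the peptide editor H2-DM, differed less between dendritic-like and other myeloid cells than the classical chains did with control IgG, at 676 and 698 CPM in dendritic-like, 609 and 487 CPM in macrophage-like and 717 and 493 CPM in monocyte-like cells. B-like cells had 289 and 273 CPM. Monocyte-like cells (686 to 748 CPM) and dendritic-like cells (644 to 709 CPM) overlapped in their intervals with control IgG. Exons of H2-DMa overlap those of Brd2 on the other strand, and without knowledge of the strand setting reads of this overlap cannot be told apart.

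The mouse has 2 genes for the beta chain of H2-DM, and their use differed by class. H2-DMb1 was 395 and 373 CPM in dendritic-like, 426 and 268 CPM in macrophage-like and 529.8 and 273 CPM in monocyte-like cells, but 66.6 and 56.5 CPM in B-like cells. H2-DMb2 was 299 and 247 CPM in B-like and 176 and 170.3 CPM in dendritic-like cells, but 10.4 and 9.04 CPM in macrophage-like and 20.7 and 14.3 CPM in monocyte-like cells, against 11.9 and 10.4 CPM in free RNA. Of these 4 myeloid values, the one of monocyte-like cells with control IgG (15.8 to 26.5 CPM) lay above free RNA (9.40 to 15.0 CPM) and the others overlapped it. Of the UMIs of both beta genes, H2-DMb2 made up 81.8% (exact 95% interval 77.1% to 85.8%) in B-like cells with control IgG and 81.4% with the antibody. In macrophage-like cells it made up 2.39% (1.94% to 2.92%) and 3.26%. The transcripts share a stretch of up to 221 identical bases, but at most 23 bases in a row within their last 300, the end from which 3′ libraries are read.

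Dendritic-like cells were a mixture in this respect. Cells of the mature Ccr7 type, dendritic cells that migrate to lymph nodes, took 64.8% (58.5% to 70.7%) and 70.6% of their beta UMIs from H2-DMb2. The Cd209a or Flt3 type took 27.2% and 33.1%, and the type 1 cells, which cross-present to CD8 T cells, 18.5% and 10.4%. No interval of the mature type overlapped one of the other types in either library. In plasmacytoid cells the share was 0 of 40 UMIs with control IgG (an upper limit of 8.81%) and 1 of 16 with the antibody.

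H2-Oa and H2-Ob encode the chains of H2-O, which restrains H2-DM. H2-Oa was 182 and 127 CPM in B-like and 178 and 130.5 CPM in dendritic-like cells, against 3.03 and 7.91 CPM in macrophage-like and 14.6 and 7.17 CPM in monocyte-like cells. H2-Ob was 356 and 330.0 CPM in B-like and 76.8 and 83.1 CPM in dendritic-like cells, against 6.28 and 6.78 CPM in macrophage-like and 9.82 and 10.2 CPM in monocyte-like cells. Free RNA held 13.9 and 7.59 CPM of H2-Oa and 8.60 and 9.54 CPM of H2-Ob. Macrophage-like and monocyte-like cells overlapped free RNA in their intervals for both genes and libraries, except H2-Oa in macrophage-like cells with control IgG, whose upper bound of 4.41 CPM lay below it (11.1 to 17.1 CPM).

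Set beside H2-DM, the H2-O genes gave 82.2 and 79.2 UMIs per 100 UMIs of H2-DMa, H2-DMb1 and H2-DMb2 in B-like cells. The values were 20.4 and 17.2 in all dendritic-like cells, 31.6 and 30.8 in the mature Ccr7 type, 1.92 and 2.22 in monocyte-like and 0.892 and 1.92 in macrophage-like cells. The order of the classes was the same in both libraries. Exons of H2-Oa overlap those of BC051537 on the other strand.

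**Figure D2:**
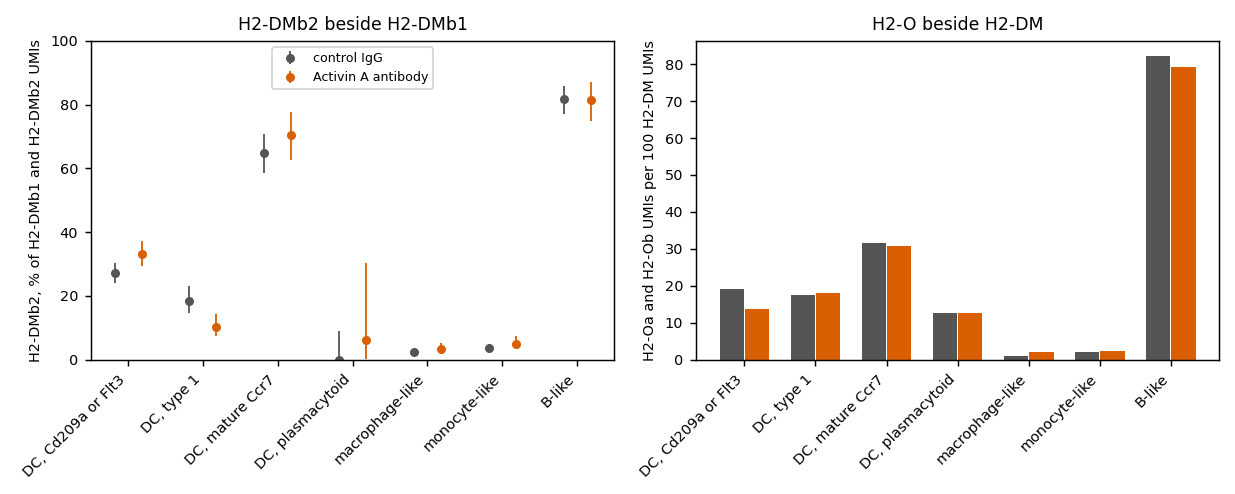
Left, H2-DMb2 as a percentage of the UMIs of H2-DMb1 and H2-DMb2 with exact 95% binomial intervals; right, UMIs of H2-Oa and H2-Ob per 100 UMIs of the 3 H2-DM genes, in 4 kinds of dendritic-like cells (DC) and in macrophage-like, monocyte-like and B-like cells of both libraries. B-like cells are highest in both panels and mature Ccr7 cells come next.

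Ciita, the coactivator of class II transcription, was 177 and 198 CPM in dendritic-like, 156 and 102 CPM in monocyte-like, 94.8 and 106 CPM in B-like and 80.8 and 63.3 CPM in macrophage-like cells. It was 5.79 and 1.92 CPM in fibroblast-like cells (23 and 6 UMIs) and 1.59 and 1.05 CPM in cancer-like cells (32 and 22 UMIs), against 12.4 and 13.0 CPM in free RNA and 2.80 and 2.41 CPM in T-like cells. Fibroblast-like and cancer-like cells were thus below free RNA in both libraries. Foreign RNA was estimated at 16.1% and 7.21% of the UMIs of fibroblast-like and 4.63% and 3.04% of those of cancer-like cells. A level below pure free RNA therefore does not show that Ciita was absent. Per 100 UMIs of H2-Aa, Ciita gave 3.45 and 4.94 in dendritic-like cells of the Cd209a or Flt3 type but 0.898 and 1.07 in the mature Ccr7 type. Exons of Ciita overlap those of Dexi on the other strand.

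The 4 kinds of dendritic-like cells held different amounts of class II RNA. The 10 genes summed to 51817 and 44547 CPM in the Cd209a or Flt3 type (121 and 96 cells), 43449.6 and 39707 CPM in type 1 cells (45 and 35 cells), 36844 and 34598 CPM in the mature Ccr7 type (73 and 49 cells) and 7795 and 4872 CPM in plasmacytoid cells (42 and 35 cells). H2-Ab1 was lower in the mature type (4895 and 4485 CPM) than in the Cd209a or Flt3 type (8538 and 7375 CPM), and H2-DMa likewise (368 and 372 against 907 and 862 CPM). H2-Aa differed less between these 2 types, with 7042 and 6426 and 8104 and 6672 CPM. Plasmacytoid cells had 1 Ciita UMI in each library, beside 298 and 151 H2-Aa UMIs. Their H2-Aa level was 1063 and 649.9 CPM, against 799 and 460.3 CPM in free RNA. By T cell genes, foreign RNA was estimated at only 11.6% and 13.1% of the UMIs of all dendritic-like cells. Closeness to pure free RNA therefore does not show that this level was background.

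The antibody library was set against the control IgG library within each class. Genes with at least 20 UMIs over both libraries in a class were compared, and a gene was counted as higher or lower where its CPM differed by 1.5-fold or more. In dendritic-like cells 0 of 10 members were lower and 0 higher, where 7.73% of 10015 genes were lower and 6.92% higher. The summed log2 ratio of antibody over control IgG was -0.17 (-0.19 to -0.16), the median over the members -0.09, and the median over all genes compared 0.0047. The members ranged from -0.44 for H2-Oa to 0.16 for Ciita. With a gate on 2 defining genes the summed log2 ratio turned to 0.030. The class as a whole thus had no direction that held under every gate. Under the main gate each kind of dendritic-like cell was lower with the antibody. The summed log2 ratio was -0.22 in the Cd209a or Flt3 type, -0.13 in type 1 and -0.09 in the mature Ccr7 type. In plasmacytoid cells (42 and 35 cells) it was -0.68 (-0.78 to -0.57), past 1.5-fold, beside -0.80 in free RNA. These intervals all lay below 0. Ratios of the kinds under other gates are not given.

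In B-like cells 0 of 10 members were lower and 0 higher, where 9.57% of 7325 genes were lower and 9.28% higher. The summed log2 ratio was -0.31 (-0.34 to -0.27), and 9 of 10 members were below 0, with a median of -0.28. H2-Oa had -0.52 (-0.94 to -0.11) and Ciita 0.16 (-0.34 to 0.66), an interval that includes 0. The summed level of the T cell genes Cd3d, Cd3e, Cd3g, Trac and Trbc2 in this class also differed between the libraries (289 and 184 CPM), and its part in the result was not tested.

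In macrophage-like cells 1 of 10 members was lower, where 8.9% of 11311 genes were, and 1 was higher, where 9.96% were. The lower member was H2-DMb1 (426 and 268 CPM, log2 ratio -0.67, -0.81 to -0.53). The higher one was H2-Oa, with 27 UMIs in 25 of 1068 cells and 14 UMIs in 8 of 259 cells (1.38, 0.34 to 2.37). The summed log2 ratio was -0.35 (-0.37 to -0.34) and the median over the members -0.33. H2-Aa (-0.33), H2-Ab1 (-0.34), H2-Eb1 (-0.21) and Cd74 (-0.41) were all below 0 beyond their intervals and within the 1.5-fold limit.

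The kinds of macrophage-like cells differed in class II level. Cells with a Pf4 or Ccl8 UMI, markers of resident and scavenging macrophages, held 28090.0 CPM with control IgG and 19619.7 CPM with the antibody, and those without held 35706 and 31068 CPM. The log2 ratios were -0.52 (-0.54 to -0.50) and -0.20 (-0.22 to -0.18). Cells with an Arg1 UMI, an enzyme of arginine breakdown, held 30677 and 24553 CPM, and those without 40732 and 26437 CPM. Ciita was 60.9 CPM with and 209 CPM without an Arg1 UMI under control IgG. All 4 subsets were lower in the antibody library. They overlap, since the same cells were split by each marker. The cells were split unthinned, at a median depth of 7891 and 6271 UMIs, so the subsets are not matched between the libraries.

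In monocyte-like cells 7 of 10 members were lower by 1.5-fold or more, where 8.3% of 9607 genes were, and 0 were higher, where 8.79% were. The 7 were H2-Aa (-0.97, -1.03 to -0.92), H2-Ab1 (-0.92), H2-Eb1 (-0.94), Cd74 (-0.88), H2-DMb1 (-0.96), H2-Oa (-1.02) and Ciita (-0.62). H2-DMa was -0.54 (-0.66 to -0.42), just inside the limit, and the intervals of H2-DMb2 (-1.27 to 0.18) and H2-Ob (-0.91 to 0.96) included 0. The sum of the 10 was 29601 and 15885 CPM, a log2 ratio of -0.90 (-0.92 to -0.88), and the median over the members was -0.90 against 0.01 over all genes compared. At a 2-fold limit 1 member was lower, H2-Oa, with 43 and 12 UMIs (-2.08 to -0.07). Its level was 14.6 and 7.17 CPM, against 13.9 and 7.59 CPM in free RNA. The share of all genes past 2-fold is not given, so this count has no background beside it.

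**Figure D3:**
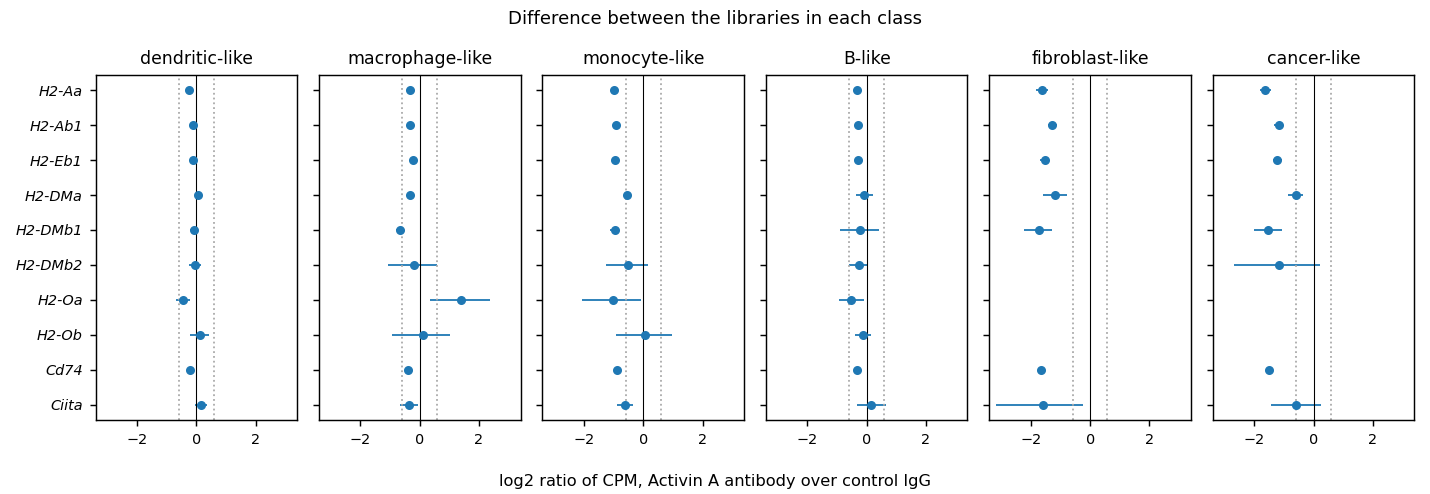
Log2 ratio of CPM, antibody over control IgG, for the members (rows) in the 6 classes (panels), for genes with at least 20 UMIs over both libraries; bars are 95% intervals for counting error and dotted lines mark 1.5-fold. Dendritic-like and B-like members stay between the dotted lines, and 7 monocyte-like, 7 fibroblast-like and 8 cancer-like members lie to the left of them.

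The difference in monocyte-like cells was seen in both subsets by Ly6c2, a marker of classical monocytes. With a Ly6c2 UMI the sum was 28094 and 14842 CPM (-0.92, -0.94 to -0.90), and without one it was 33156 and 18524 CPM (-0.84, -0.87 to -0.81). Cells with a Ly6c2 UMI made up 68.2% and 66.2% of the class. Ciita was lower with the antibody in cells with a Ly6c2 UMI (-0.87, -1.19 to -0.57), while the interval in those without included 0 (-0.36 to 0.68). The difference between both subsets was not tested. These cells, too, were split unthinned, at a median depth of 6272 and 5373 UMIs. Of the class, 97 of 453 and 44 of 287 cells lay near the border to another class, and macrophage-like cells, the neighbouring class, were 12.2% and 4.06% of all cells, and the part of either in the result was not tested.

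To follow single cells at equal depth, every cell was thinned to 2000 UMIs and shallower cells were left out. The median monocyte-like cell then held 56 class II UMIs with control IgG (447 cells, quartiles 25 and 83.5) and 18 with the antibody (277 cells, 3 and 54). Macrophage-like cells held 63.5 (1040 cells, 43 and 88) and 51 (251 cells, 19 and 75.5), dendritic-like cells 83 and 73 (281 and 215 cells), and B-like cells 40 and 33.5 (229 and 138 cells). In monocyte-like cells the lower quartile lay in the range of T-like cells with the antibody, where the 99th percentile of T-like cells was 3 UMIs. The highest cells of both libraries still overlapped, with 90th percentiles of 107 and 82. The 10% of the cells with most class II UMIs held 22.0% and 31.9% of the class II UMIs.

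**Figure D4:**
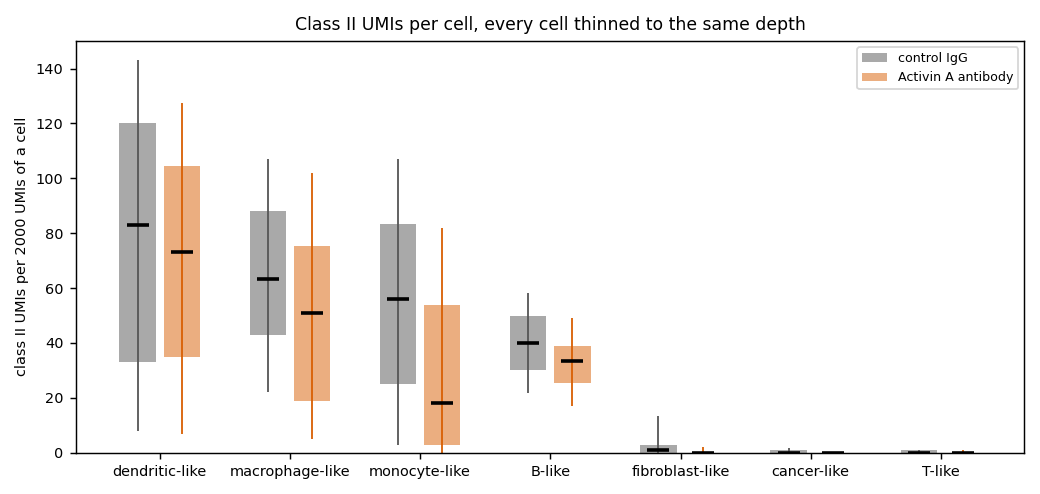
Class II UMIs per cell after thinning to 2000 UMIs, by class and library; boxes span the quartiles, black marks the medians and lines the 10th to 90th percentiles. The monocyte-like median moves from 56 to 18, while the dendritic-like boxes largely overlap.

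Fibroblast-like cells held 9717 class II UMIs in 218 cells with control IgG and 2608 in 235 cells with the antibody. H2-DMb2, H2-Oa and H2-Ob had too few UMIs to compare, and 7 of the 7 members compared were lower, where 7.96% of 12145 genes were, and 0 higher, where 10.3% were. The log2 ratios were -1.62 (-1.81 to -1.43) for H2-Aa, -1.27 (-1.41 to -1.13) for H2-Ab1, -1.54 for H2-Eb1, -1.66 for Cd74, -1.17 for H2-DMa, -1.74 for H2-DMb1 and -1.59 (-3.18 to -0.26) for Ciita. The sum was 2445 and 834 CPM (-1.55, -1.61 to -1.49), and the median over the 7 members was -1.59 against 0.03 over all genes compared. The level rested on few cells, since 10% of the thinned cells held 61.8% and 83.4% of the class II UMIs.

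After thinning to 2000 UMIs, 141 of 216 fibroblast-like cells (65.3%, 58.5% to 71.6%) had a class II UMI with control IgG and 56 of 233 (24.0%, 18.7% to 30.0%) with the antibody. T-like cells gave 33.8% and 17.2%. Unthinned, the shares were 89.0% and 50.6% in fibroblast-like cells (median depth 15312 and 9325 UMIs). In T-like cells they were 65.4% and 33.9% (median depth 4914 and 4258 UMIs). The thinned share was above that of T-like cells in both libraries, and with the antibody the lower bound of 18.7% lay just over the T-like upper bound of 18.4%. By T cell genes, foreign RNA was estimated at 16.1% and 7.21% of the UMIs of fibroblast-like cells. In T-like cells the estimate, by C1qa, C1qb and C1qc, was 3.06% and 2.34%. The T-like share is thus no matched background for fibroblast-like cells, and expression was not read from these shares.

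Leukocyte RNA was lower too in fibroblast-like cells of the antibody library, by less than class II RNA. The leukocyte genes Ptprc, Tyrobp, Fcer1g, Laptm5 and Cd52 summed to 375 and 266 CPM in fibroblast-like cells, against 10798 and 9628 CPM in monocyte-like cells, and 135 of 218 and 76 of 235 cells held at least 1 such UMI. In cells without one, the class II sum was 2091 CPM (83 cells) and 359 CPM (159 cells), a log2 ratio of -2.54 (-2.68 to -2.41). In those with one it was 2562 and 1344 CPM (-0.93), and in the 52 and 20 cells with 3 or more it was 3148 and 2904 CPM (-0.12). The difference was thus larger in cells without a leukocyte UMI and small in those with several. The cells were split unthinned, at a median depth of 15312 and 9325 UMIs, so the subsets are not matched in depth between the libraries.

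Free RNA was also lower in class II with the antibody (-0.80, -0.83 to -0.77). By the T cell genes Cd3d, Cd3e, Cd3g, Trac and Trbc2, which fibroblasts lack, foreign RNA (free RNA or T cell doublets) was estimated at 16.1% and 7.21% of the UMIs of fibroblast-like cells. If all of it were free RNA, it would give 857 and 220.2 CPM of class II, which leaves 1588 and 614 CPM and a log2 ratio of -1.37. For all class II UMIs to be free RNA it would have to make up 46.0% and 27.3% of the UMIs of these cells. Doublets were not removed, and T cell genes do not gauge RNA of class II-rich cells under the same barcode. Macrophage-like cells, for one, held 32023 and 25059 CPM of class II. The source of the UMIs was not tested. Fibroblast-like cells with an Acta2 or Tagln UMI, contractile genes of myofibroblasts, held 2665 and 1009 CPM (-1.40), and those without 2027 and 693 CPM (-1.55). This split was made unthinned as well.

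Cancer-like cells had the lowest class II level of the 6 classes, 332 and 129.7 CPM in 365 and 394 cells. H2-Oa and H2-Ob had too few UMIs to compare, and 8 of the 8 members compared were lower with the antibody, where 7.8% of 14211 genes were, and 0 higher, where 5.04% were. H2-Aa had a log2 ratio of -1.63 (-1.81 to -1.45), H2-Ab1 -1.18, H2-Eb1 -1.22, Cd74 -1.49 and H2-DMb1 -1.53. H2-DMa had -0.61 (-0.87 to -0.35), and the intervals of Ciita (-1.45 to 0.23) and H2-DMb2 (-2.69 to 0.23) included 0. The sum had a log2 ratio of -1.36 (-1.42 to -1.29).

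The class II level of cancer-like cells was below that of T-like cells in both libraries, and after thinning 29.4% (24.8% to 34.4%) and 9.49% (6.77% to 12.8%) of the cells had a class II UMI. These shares were not above those of T-like cells. Before thinning, however, the median depth was 55206 and 54383 UMIs, against 4914 and 4258 UMIs in T-like cells. The T-like share is thus no matched background, so expression was neither read from the cancer-like shares nor excluded by them. The source of the UMIs was not tested. Unthinned, 97.5% and 78.2% of cancer-like cells had a class II UMI. By the same T cell genes, foreign RNA was estimated at 4.63% and 3.04% of the UMIs, which as free RNA would bring 74.1% and 71.7% of the class II UMIs. Leukocyte UMIs were seen in 329 of 365 and 265 of 394 cells, and the 36 and 129 cells without one held 137 and 43.5 CPM.

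**Figure D5:**
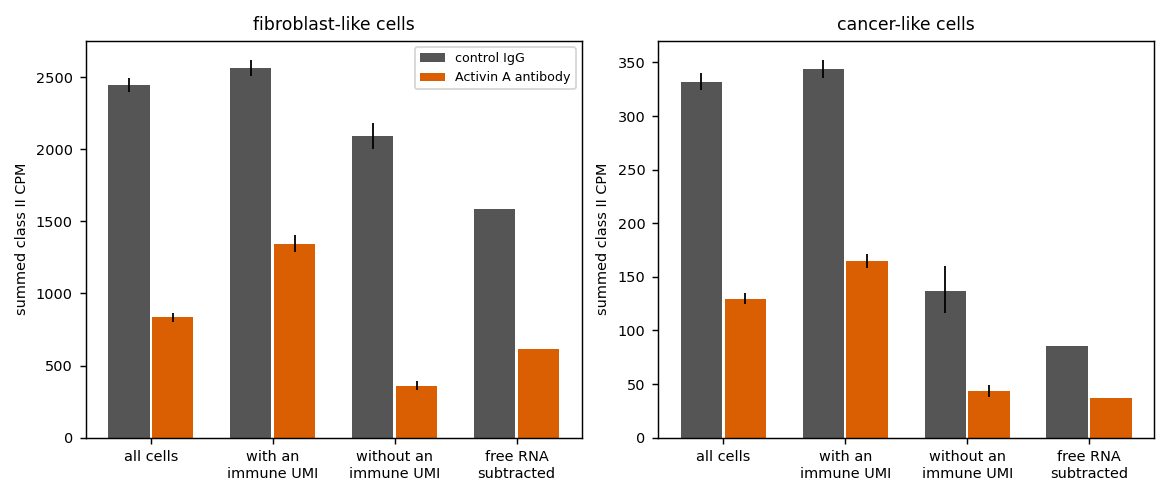
Summed CPM of the 10 genes in fibroblast-like (left) and cancer-like (right) cells of both libraries, in all cells, in cells with and without a UMI of Ptprc, Tyrobp, Fcer1g, Laptm5 or Cd52, and in all cells after subtraction of free RNA; bars on the first 3 pairs are exact 95% Poisson intervals. The antibody library is lower in each pair, and the axes of the panels differ in scale.

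Summed over all kept cells, the share of class II UMIs that came from each class also differed. There were 647316 class II UMIs with control IgG and 210844 with the antibody. Macrophage-like cells gave 44.1% and 21.0% of them, and made up 12.2% and 4.06% of the cells. Dendritic-like cells gave 15.98% and 34.4% from 3.20% and 3.37% of the cells. Monocyte-like cells gave 13.5% and 12.6%, and B-like cells 2.61% and 4.15%. Dendritic-like cells were thus the largest source with the antibody and macrophage-like cells with control IgG, while 16.5% and 18.7% came from cells that no gate took.

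Of the other genes of the pathway, 11 regulators of class II transcription, among them the RFX and NF-Y subunits, were compared in every class. In monocyte-like cells 0 of 11 were lower, where 8.3% of all genes were, and 1, Nfyb, was higher, where 8.79% were. The median log2 ratio was -0.10. Irf1, a transcription factor induced by interferon gamma, was 396 and 369.7 CPM (-0.10). In fibroblast-like cells the median was -0.03. In macrophage-like cells 2 of 11, Rfx5 (1.29, 33 and 16 UMIs) and Nfya (0.66, 226 and 71 UMIs), were higher, beyond their intervals, where 9.96% of all genes were higher. In B-like cells Rfx5 (1.02, -0.28 to 2.37), Rfxank (0.65, -0.78 to 2.07) and Ifngr2 (0.65, -0.033 to 1.32) were past 1.5-fold upward, as 9.28% of all genes were there, and in dendritic-like cells Rfxank (-0.66, -1.66 to 0.28) was past it downward, as 7.73% were. All 4 of these intervals include 0. In cancer-like cells 0 of 11 passed the limit in either direction, where 7.8% of all genes were lower and 5.04% higher.

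The 10 genes of invariant chain and antigen processing (Ctss, Ctsl, Ctsb, Ctsd, Ctsh, Ctsz, Lgmn, Ifi30, Sppl2a and Cst3) had medians between -0.21 and 0.02 over the 6 classes. Ctss, the protease that trims the invariant chain in dendritic and B cells, was 3455 and 2466 CPM in monocyte-like cells (-0.49), within the limit. It was lower in fibroblast-like (60.1 and 40.0 CPM, -0.59) and cancer-like cells (-1.22). Ctsh was lower in monocyte-like cells (-0.59, -0.71 to -0.47) and Ctsb in B-like cells (-0.74, -1.45 to -0.07, 68 and 26 UMIs). In each of these classes 1 of 10 processing genes was thus lower. Of all genes, 7.96% were lower in fibroblast-like, 7.8% in cancer-like, 8.3% in monocyte-like and 9.57% in B-like cells. The counts were near these shares. Of the genes of class II turnover, March1, a ligase that sends class II to lysosomes, was 8.56 and 0.640 CPM in fibroblast-like cells (34 and 2 UMIs). It was 1 of 2 turnover genes compared there, where 7.96% of all genes were lower. Cd83, which opposes it, was higher in macrophage-like (0.63) and B-like cells (0.62). It was 1 of 3 and 1 of 2 compared, where 9.96% and 9.28% of all genes were higher. H2-Eb2, a relative of H2-Eb1, was 65.4 and 58.2 CPM in B-like and 15.5 and 27.7 CPM in dendritic-like cells. In the latter it was higher with the antibody (0.84, 0.22 to 1.47, 39 and 55 UMIs), where 6.92% of all genes were.

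The genes whose levels were most like the mean of H2-Aa, H2-Ab1, H2-Eb1 and Cd74 were named over 24 points, made of 12 classes or kinds of cells in each of 2 libraries, on the scale log2(CPM + 10). Among the members Pearson's r was 0.948 for H2-DMa, 0.929 for H2-DMb1, 0.892 for Ciita, 0.749 for H2-DMb2, 0.677 for H2-Oa and 0.673 for H2-Ob. Outside the members the highest were Ifi30 (0.951), a lysosomal thiol reductase, Snap23 (0.939), Irf5 (0.938), Spi1 (0.922) and Tbc1d9 (0.912). The points share their libraries and free RNA, and the values describe these classes only.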

How the data were processed

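Single-cell 3′ RNA libraries of 10x Genomics were made from tumour tissue pooled per group. The authors deposited UMI counts per gene and barcode as unfiltered matrices, which per the file headers were written by Cell Ranger 4, while the submitters' processing notes name Cell Ranger 7.0.1 and mm10. The strand setting is not given in the sources used here.

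Cells were kept between 1000 and 8500 genes and between 1000 and 100000 UMIs where mitochondrial counts were no more than 10%, and doublets were not removed. Each cell was scored for each marker list, with every marker scaled by the cells highest in it, and took the class with the highest score where that was at least 0.2, led the next class by 0.05 and rested on 3 or more detected markers. This scoring rule was set after the files were seen. UMIs were summed per class and library to CPM, with exact Poisson intervals for levels, exact binomial intervals for shares and ratios, and 95% confidence. Each group is 1 library, so no test was run, and nothing separates antibody from library. Nothing says how mice contributed to a pool.

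The members, the pathway lists and the markers were chosen with earlier results of these data known. All members were named in every class. Pathway genes were named where they passed 1.5-fold, beside some within it (1 result is not reported here), and the 5 most alike genes by Pearson's r over log2(CPM + 10). Free RNA in a class was estimated from genes it should lack. Haemoglobin was tried first and replaced by T cell genes (C1qa, C1qb and C1qc in T-like and NK-like cells) after its values were seen, because macrophage-like cells of the antibody library held more of it than free RNA did. Gene IDs were matched to GENCODE M21 (32158 of 32285 IDs, 99.6%), and promoters to RefSeq by symbol (7 of 10 members). Python 3.11.15, numpy 2.4.6, scipy 1.17.1, pandas 2.3.3 and matplotlib 3.10.9 were used, and the ratio script was tested on simulated data. Alternatives in gates, filters, thinning and fold were tried.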

Additional observations from a re-analysis of the deposited data

Results flagged for a closer look

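H2-Oa, the alpha chain of the H2-DM inhibitor, differed between the libraries in opposite directions, beyond the counting interval in each of these classes. Its log2 ratio of antibody over control IgG was 1.38 in macrophage-like cells, but -0.44 in dendritic-like, -1.02 in monocyte-like and -0.52 in B-like cells. The difference between the classes was not tested, since each group is 1 library. The macrophage-like value rests on 27 UMIs in 25 of 1068 cells with control IgG and 14 UMIs in 8 of 259 cells with the antibody. It was 1 of 10 members higher there, where 9.96% of all genes were. The levels were 3.03 and 7.91 CPM in macrophage-like cells and 13.9 and 7.59 CPM in free RNA. Monocyte-like cells, at 14.6 and 7.17 CPM (43 and 12 UMIs), overlapped free RNA in their intervals in both libraries.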

How the results depend on the processing

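Values are log2 ratios of the summed class II level, antibody over control IgG, unless said otherwise. With a stricter gate they were -0.11 in dendritic-like, -0.30 in macrophage-like, -0.94 in monocyte-like, -0.35 in B-like, -1.39 in fibroblast-like and -1.57 in cancer-like cells, and with no margin between classes -0.79 in monocyte-like cells. A gate on 2 defining genes gave 0.030 in dendritic-like cells, the opposite direction, and -0.38 in macrophage-like, -0.99 in monocyte-like and -1.89 in cancer-like cells. Without cells that held UMIs of another lineage they were -0.30 in macrophage-like, -0.82 in monocyte-like, -0.26 in B-like, -2.54 in fibroblast-like and -1.65 in cancer-like cells. Without the 5% of cells with most UMIs they were -0.21 in dendritic-like, -0.30 in macrophage-like, -0.78 in monocyte-like, -0.22 in B-like, -1.86 in fibroblast-like and -1.27 in cancer-like cells. A mitochondrial share of at most 5% gave -0.19 in dendritic-like and -0.33 in macrophage-like cells, centring on all genes -0.38 in macrophage-like cells, and no upper limits on genes and UMIs -1.43 in cancer-like cells. Free RNA subtraction gave -0.25 in B-like, -1.37 in fibroblast-like and -1.23 in cancer-like cells, and weighting every cell equally -0.87 in monocyte-like, -0.25 in B-like, -2.10 in fibroblast-like and -1.09 in cancer-like cells. The cause of these moves was not tested. At a 2-fold limit 0 members were lower in macrophage-like and 1, H2-Oa, in monocyte-like cells, with no share of all genes past 2-fold beside it. The share of cells with a class II UMI was 89.0% unthinned and 50% at 1000 UMIs in fibroblast-like cells with control IgG, and 50.6% and 14.9% with the antibody. It was 97.5% and 14.8% in cancer-like cells with control IgG, 78.2% unthinned with the antibody, and 65.4% and 19.4% in T-like cells with control IgG and 33.9% and 10.1% with the antibody. No paired analysis was possible because the antibody and the control IgG were read in 1 library each, which also leaves no replicate to omit. Depth limits H2-DMb2, H2-Oa and H2-Ob outside dendritic-like and B-like cells, and Ciita in fibroblast-like and cancer-like cells.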

Other observations

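Mesothelial-like cells, which line the peritoneum, held more class II RNA than fibroblast-like cells. The 10 genes summed to 6409.9 and 3330.5 CPM in 36 and 27 cells with control IgG and with the antibody (log2 ratio -0.94, -1.01 to -0.88), against 5318 and 3056 CPM in free RNA, and the median cell held 11.5 and 4 class II UMIs of 2000. Foreign RNA, estimated from T cell genes, would give 10.4% and 7.85% of their class II UMIs. The leukocyte genes Ptprc, Tyrobp, Fcer1g, Laptm5 and Cd52 summed to 479 and 107 CPM in them, and their part in the result was not tested. Per 100 H2-Aa UMIs mesothelial-like cells held 665 and 648 UMIs of Cd74.

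T-like cells held 634 and 443 CPM of the 10 genes and NK-like cells 795 and 420.0 CPM. Cd74 gave 308 and 320.0 UMIs per 100 H2-Aa UMIs in T-like cells, alike to free RNA (311 and 293), while the proportions of H2-DMa and H2-Oa were higher than there. H2-DMa gave 45.3 and 61.0 UMIs per 100 H2-Aa UMIs in T-like and 47.6 and 147 in NK-like cells, against 15.8 and 19.2 in free RNA. H2-Oa gave 10.1 and 10.6 in T-like cells against 1.73 and 1.65 in free RNA.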
